A study of Mus musculus with 6 samples.

Results

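The genes described here are 34 genes that encode chaperones, folding enzymes, degradation factors and stress sensors of the endoplasmic reticulum (ER). They were taken by symbol from GENCODE M21, and all 34 were found among the 55487 genes of the count table. They comprise 11 chaperones and co-chaperones, 7 enzymes of disulfide formation, 11 parts of ER-associated degradation (ERAD), 2 subunits of the translocon and 3 sensors or transcription factors of the unfolded protein response. RNA was sequenced from RAW264.7, a macrophage cell line of the mouse from which osteoclasts can be grown, after exposure to RANKL and M-CSF, which both groups received. One group of 3 samples was wild type and is called control. The other group of 3 was labelled a knockout of RhoA, a small GTPase of the actin cytoskeleton, made with an approach titled SMART-Cas9. The labels do not say whether the edited cells were a clone or a pool, and no samples had Cas9 without the RhoA target, so an effect of the Cas9 treatment and one of the edit cannot be told apart.

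Proteins that enter the secretory pathway fold in the ER, where the HSP70 chaperone BiP (Hspa5) and the HSP90 chaperone GRP94 (Hsp90b1) hold unfolded chains, calnexin (Canx) binds glycoproteins, and protein disulfide isomerases form and rearrange disulfide bonds. Chains that fail to fold are drawn back into the cytosol through a membrane complex built around the ubiquitin ligase HRD1 (Syvn1) and its partner Sel1l, and are destroyed by the proteasome. An excess of unfolded protein activates IRE1 (Ern1), which splices the mRNA of Xbp1, as well as ATF6 and PERK, and the transcription factors made in this way raise the genes for chaperones and ERAD parts. Gene counts measure total Xbp1 mRNA, and its splicing and the activity of the sensors were not measured here.

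Library totals ran from 60198645 to 81830819 counts, and 12930 genes had enough counts to be tested. Rhoa itself was not lower in the libraries labelled knockout. It stood at 21.4, 25.8 and 24.4 CPM in the control libraries and 34.2, 29.9 and 31.5 CPM in the others (log2 fold change 0.41 ± 0.12, edgeR adjusted p = 0.0136), where the error is the SE and a CPM value is the count as a share of the library total (the usual CPM unit) after scaling by the trimmed mean of M-values (TMM). Counts per gene do not show small edits of the sequence or the amount of protein, so they cannot check the label either way. The second group is therefore called knockout-labelled below. All 10 macrophage markers were detected, and their summed level was 18200 to 20000 CPM in controls and 81100 to 114000 CPM in knockout-labelled libraries, most of it Lyz2. The list went both ways, with Lyz2, Cd68, Csf1r and Cx3cr1 among those higher and Itgam, Fcgr1, Cd14 and Adgre1 lower. The sum of 10 osteoclast markers was low, at 24.3 to 27.7 and 27.3 to 27.5 CPM, with Calcr and Oscar at 0, and it too held opposite calls, with Ctsk and Atp6v0d2 higher and Mmp9, Acp5 and Dcstamp lower. Plasma cells are rich in the proteins studied here, and of 10 plasma and B cell markers 6 were at 0 in all libraries, Jchain, Mzb1 and Cd79a among them, while the sum, mostly Ighm, was 14.1 to 19.1 CPM in controls and 32.7 to 37.1 CPM in the others. Differences in the number of cells of a kind and in the RNA per cell cannot be told apart in such samples, and the part of these markers in the results below was not tested.

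The 34 genes did not move as a block. Herpud1, Pdia3, Pdia6 and the transcription factor gene Xbp1 rose, whereas the oxidase gene Ero1l, the ERAD genes Sel1l, Edem1, Syvn1, Derl1 and Os9 and the sensor genes Atf6 and Ern1 fell. Of 33 members tested, 8 were higher, 11 lower and 14 not called by edgeR's quasi-likelihood test at an adjusted p of 0.05. That is 57.6% called, beside 43.2% of all 12930 genes, and 24.2% higher and 33.3% lower, beside 21.0% and 22.3% of all genes. The share over all genes depended on how many sparse genes were tested. Under a stricter filter of at least 1 CPM in at least 3 libraries, 56% of 9642 genes were called. With it 8 of the 33 members were higher and 12 lower, so the members stood closer to all genes. The roles were not counted with that filter. The groups did not overlap for 21 members (63.6%), beside 55.8% of all genes. Derl3, a member with no count in any library, could not be tested, and 3 counts would have been 0.034 to 0.051 CPM. The median log2 fold change of the members was -0.26, beside -0.03 for all genes. Scaling by library totals alone gave 11 higher and 8 lower members, and it turned the balance over all genes from 48.5% to 59.8% of calls being higher and moved the median of all genes to 0.15.

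**Figure D1:**
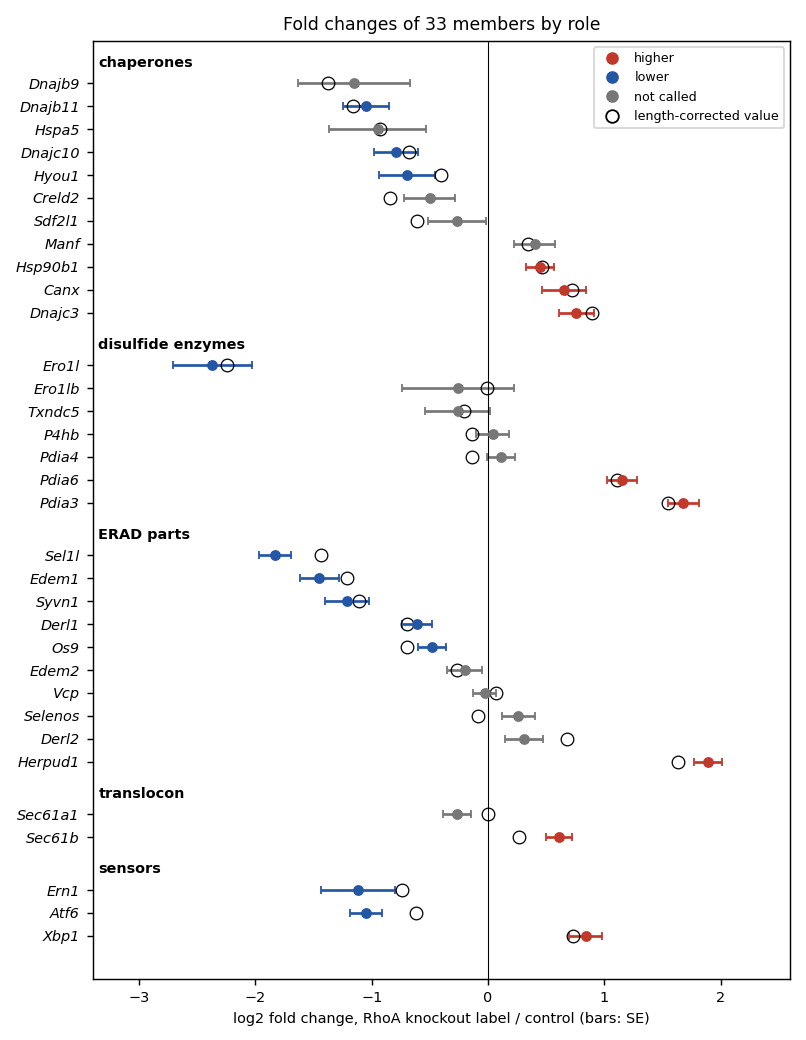
Log2 fold change of each of the 33 tested members (x axis, knockout-labelled over control, with SE bars), ordered within roles on the y axis; filled circles are coloured by the edgeR call and open circles give the value after a correction for exon length. Members of each role other than the translocon lie on both sides of 0 with calls in both directions, from Ero1l at -2.37 to Herpud1 at 1.89.

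Many of these genes are known to carry the ER stress response element (ERSE) near their start, the letters CCAAT and CCACG 9 bases apart, where ATF6 and XBP1 act. A related element, ERSE-II, has ATTGG and CCACG 1 base apart. Both were searched on both strands of the RefSeq windows that run from 250 bases before to 50 bases after an annotated start on GRCm38.p6, together with TGACGTGG, a site bound by XBP1 whose complement can overlap the CCACG of the other elements. Windows were at hand for 27 of the 34 members. An ERSE was found in 8 of these 27 members (29.6%), namely Canx, Creld2, Derl3, Dnajc3, Hsp90b1, Hspa5, Pdia6 and Syvn1, and in 0.119% of all 32851 windows. ERSE-II was found in Dnajb11 and Herpud1 and in 0.0365% of all windows. TGACGTGG was found in Txndc5 and Vcp, and in 0.676% of all windows. The units differ, because a member counts if any of its windows holds the element, while all windows are counted singly. The 27 members have 30 windows. The members with an ERSE or ERSE-II were spread over every outcome. Among members with a window, they made up 5 of 8 higher, 2 of 7 lower and 2 of 11 not called, besides Derl3. The 7 members without a window were Hyou1, Ero1l, Derl1 and Atf6, all lower, and Manf, Ero1lb and Sec61a1, not called. No higher member lacked a window, so the outcomes were searched unevenly.

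The sequences shown are those of genes that share an element and differ in outcome. For the ERSE these are Hspa5 (not called, chr2:34771840-34772089), Pdia6 (higher, chr12:17266339-17266588) and Syvn1 (lower, chr19:6046326-6046575), all on the plus strand. For ERSE-II they are Herpud1 (higher, chr8:94386179-94386428, plus strand) and Dnajb11 (lower, chr16:22857843-22857872, plus strand), of which the latter is given as the 30 bases around the site. The other 4 are the 250 bases before the start, and capitals mark the fixed letters of the element.
Hspa5: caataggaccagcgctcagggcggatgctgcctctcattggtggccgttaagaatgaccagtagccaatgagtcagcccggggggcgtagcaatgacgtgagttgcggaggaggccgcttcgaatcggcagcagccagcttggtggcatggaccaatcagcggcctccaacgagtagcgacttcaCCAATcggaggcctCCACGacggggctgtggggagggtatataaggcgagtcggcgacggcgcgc
Pdia6: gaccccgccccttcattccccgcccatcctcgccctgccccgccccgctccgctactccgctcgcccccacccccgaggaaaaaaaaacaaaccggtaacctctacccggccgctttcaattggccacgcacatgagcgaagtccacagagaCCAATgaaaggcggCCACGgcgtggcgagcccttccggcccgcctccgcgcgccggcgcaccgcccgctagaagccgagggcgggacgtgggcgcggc
Syvn1: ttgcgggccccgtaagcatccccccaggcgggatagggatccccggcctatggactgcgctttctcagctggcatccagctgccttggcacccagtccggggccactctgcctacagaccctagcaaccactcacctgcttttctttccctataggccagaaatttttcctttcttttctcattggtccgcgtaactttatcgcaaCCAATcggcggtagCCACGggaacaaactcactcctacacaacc
Herpud1: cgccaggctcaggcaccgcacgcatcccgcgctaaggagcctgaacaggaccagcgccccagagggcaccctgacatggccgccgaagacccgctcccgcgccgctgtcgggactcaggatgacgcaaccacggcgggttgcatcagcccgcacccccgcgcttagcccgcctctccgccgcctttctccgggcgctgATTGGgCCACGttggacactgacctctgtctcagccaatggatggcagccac
Dnajb11: ccggcggcgATTGGcCCACGcctggctgct
The element begins 65 bases before the start in Hspa5, 98 in Pdia6, 44 in Syvn1 and 52 in Herpud1, and 7 bases after the start in Dnajb11. A match of letters is a description of the window and not evidence of binding.

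Among the 11 chaperones and co-chaperones, 3 rose (Dnajc3, Canx, Hsp90b1), 3 fell (Dnajb11, Dnajc10, Hyou1) and 5 were not called, with a median log2 fold change of -0.50. The shares were 27.3% each way, beside 21.0% higher and 22.3% lower of all genes. Hspa5, which encodes BiP, the most abundant transcript of the 34, stood at 2630, 2760 and 7280 CPM in the control libraries and 2140, 2020 and 2410 CPM in the knockout-labelled libraries. Control replicate 3 thus stood far above the other controls, yet every knockout-labelled library lay below every control. The log2 fold change was -0.95 ± 0.42 (SE) with an adjusted p of 0.119. Without control replicate 3 it was -0.30 (adjusted p = 0.0709), without replicate 3 of both groups -0.37 (0.00279), and without control replicate 1 or 2 it was -1.19 (0.0234) or -1.20 (0.0399).

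The J proteins, which drive the ATPase cycle of BiP, went both ways. Dnajc3, a J protein also known as an inhibitor of the kinase PERK, stood at 23.7, 29.2 and 36.3 CPM in controls and 47.3, 48.1 and 55.4 CPM in knockout-labelled libraries, a rise of 0.76 ± 0.15 on the log2 scale (adjusted p = 0.00146). Dnajb11, a J protein that hands substrates to BiP, stood at 16.8, 13.6 and 12.8 CPM and 7.46, 8.42 and 5.06 CPM, a difference of -1.05 ± 0.20 on the log2 scale (adjusted p = 0.00111). The groups did not overlap for either gene, and the calls held in every alternative fit. Dnajc10, a J protein that also reduces disulfides of ERAD substrates, stood at 17.9, 19.0 and 13.4 CPM and 8.40, 12.2 and 8.47 CPM (log2 fold change -0.79 ± 0.19, adjusted p = 0.00464). Its groups did not overlap either, although the call was lost with library totals alone (0.0586). Dnajb9, a stress-induced J protein that restrains IRE1, was sparse, with 52 to 162 counts outside knockout-labelled replicate 3, which held 37, and was not called (-1.15 ± 0.48, adjusted p = 0.0707).

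The large chaperones differed from one another. Hsp90b1, which encodes GRP94, had levels of 235, 208 and 280 CPM in controls and of 336, 312 and 341 CPM in the other group (log2 fold change 0.45 ± 0.12, adjusted p = 0.0107). Canx, the lectin chaperone calnexin, had 132, 143 and 118 CPM and 273, 197 and 145 CPM (0.65 ± 0.19, adjusted p = 0.0173). Knockout-labelled libraries lay above all controls for both, by a narrow margin for Canx, whose replicate 3 was close to the highest control. Hyou1, a nucleotide exchange factor of BiP, had 7.94, 9.50 and 6.57 CPM and 6.65, 4.50 and 3.58 CPM, and its groups overlapped (-0.70 ± 0.24, adjusted p = 0.0337). Each of these 3 calls was lost in some alternative fits. Hsp90b1 lost its call without control replicate 1 (0.0506) or 2 (0.0713), Canx without control replicate 1 (0.0522) or 3 (0.09) or knockout-labelled replicate 1 (0.0862, with 0.37), and Hyou1 in 8 of 16 alternative fits, the length correction among them (0.189, with -0.40). The stress-induced factors Creld2 (-0.50 ± 0.22), Manf (0.40 ± 0.18) and Sdf2l1 (-0.27 ± 0.25) were not called, with adjusted p-values of 0.0981, 0.102 and 0.41.

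**Figure D2:**
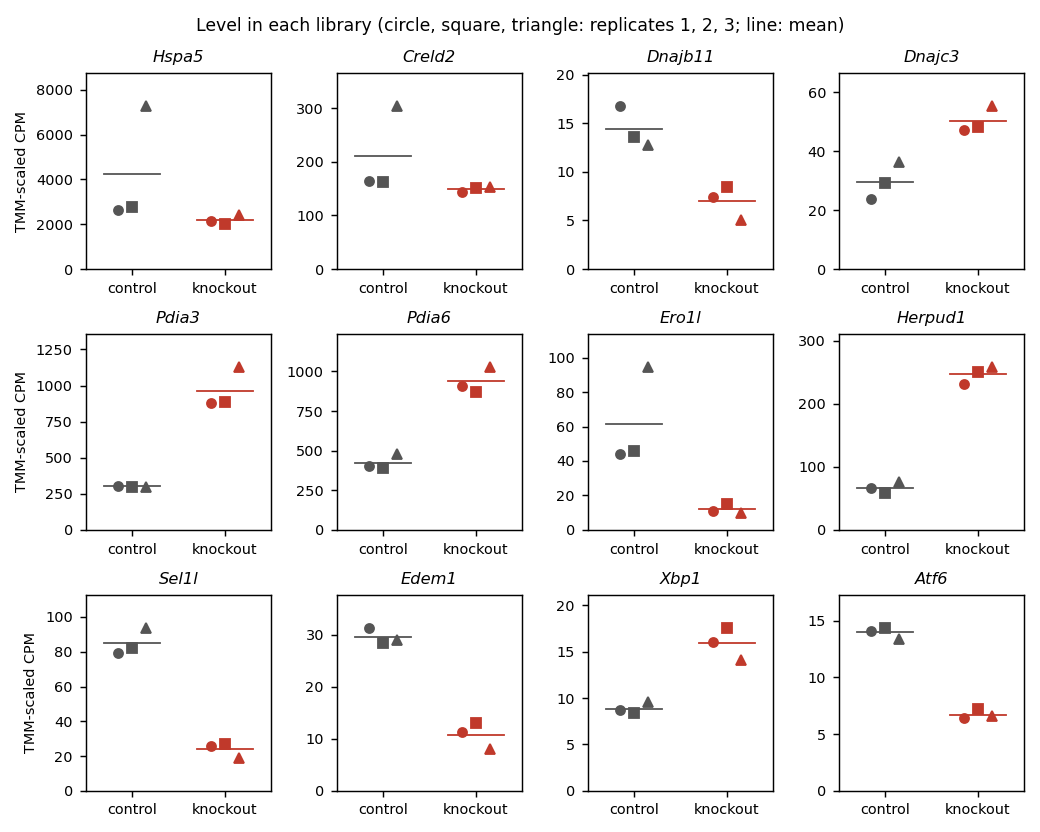
TMM-scaled CPM (y axis, from 0) of 12 members in each of the 3 control and 3 knockout-labelled libraries, with symbols for replicates and a line at the group mean. Control replicate 3 stands far above the other controls for Hspa5 (7280 CPM), Creld2 (304 CPM) and Ero1l (94.7 CPM), whereas for Pdia3, Herpud1, Sel1l, Edem1 and Atf6 the replicates of a group lie close together relative to the gap between groups.

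Control replicate 3 stood apart from the other controls for some members and not for others. Relative to the mean of control replicates 1 and 2 it held 2.70 times the level of Hspa5, 2.12 times that of Ero1l, 1.86 times that of Creld2 and Dnajb9, 1.69 times that of Manf, 1.54 times that of Derl2 and 1.53 times that of Sdf2l1. It held less than their mean for 11 members, from 0.725 times for Dnajc10 to 0.989 times for Pdia3. Hyou1 (0.753), Dnajb11 (0.842), Syvn1 (0.91) and Edem1 (0.969) were among these. It held more for the others, such as Dnajc3 (1.37), Pdia4 (1.31), Hsp90b1 (1.26), Herpud1 (1.21) and Xbp1 (1.12). What set this library apart was not tested. The library was at least 1.5 times above both other controls for 6 of 33 members (18.2%) and 1.5 times below both for none of them, beside 7.64% and 11.4% of all genes tested. Knockout-labelled replicate 3 was as far above its group for none of the members and as far below for 1 of 33, beside 7.05% and 11.2% of all genes. Over all genes, however, replicate 3 stood apart in both groups. Between counts of control libraries, chi-square per degree of freedom was 99.9 and 89 with replicate 3, and 20.7 without it. Between knockout-labelled libraries it was 101 and 80.8 with replicate 3, and 26.3 without it. Replicate 3 also had the lowest TMM factor of each group, 0.892 and 0.93. What the third libraries share was not tested. Ddit3, the stress-induced factor CHOP and no member, was chosen here after its values were seen and was likewise highest in control replicate 3, at 147, 155 and 298 CPM in controls and 96.2, 99.6 and 117 CPM in the other group. The labels do not tell control replicate 3 from the other controls. Without it, Manf, Derl2, Selenos and Pdia4 were called higher, at 0.70, 0.55, 0.46 and 0.26, and Canx was no longer called, giving 11 higher and 11 lower members with a median of -0.07.

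**Figure D3:**
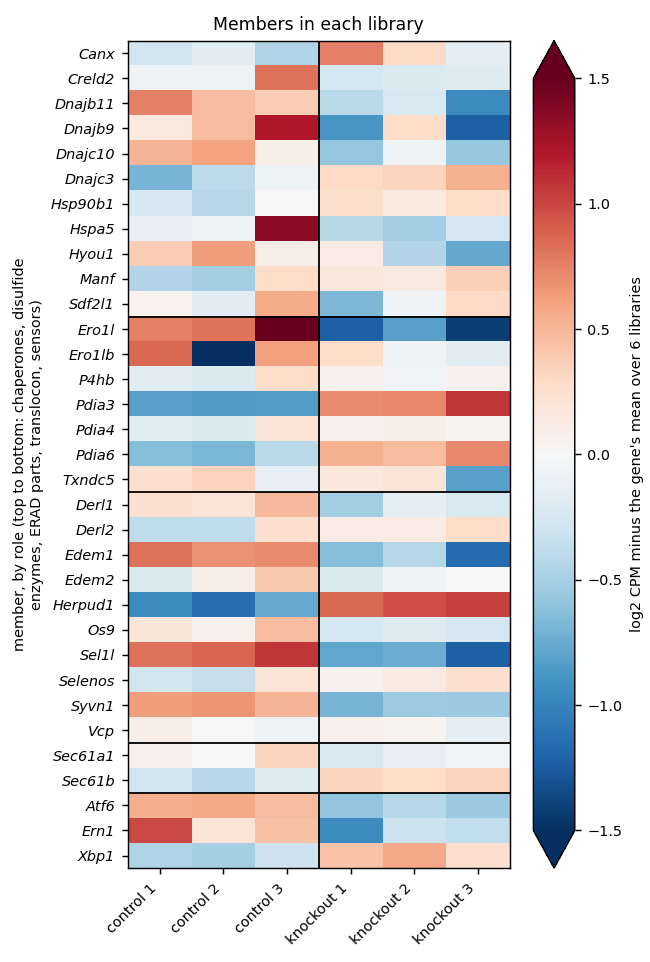
Log2 CPM of each tested member minus its mean over the 6 libraries (colour scale), with libraries in columns and members in rows, ordered by role. The control replicate 3 column is the reddest of the controls for Hspa5, Creld2, Dnajb9, Ero1l and Sdf2l1, while Herpud1, Pdia3, Pdia6, Sel1l, Edem1, Syvn1, Atf6 and Xbp1 separate the groups in every library.

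The enzymes of disulfide formation split by gene. Of 7, 2 isomerases rose, 1 oxidase fell and 4 were not called (28.6% higher and 14.3% lower, beside 21.0% and 22.3% of all genes). Pdia3, the isomerase ERp57 that works with calnexin and calreticulin on glycoproteins and also in loading of MHC class I, stood at 307, 299 and 300 CPM in controls and at 882, 886 and 1130 CPM in knockout-labelled libraries. This was a 3.20-fold rise (log2 fold change 1.68 ± 0.13, adjusted p = 9.82e-07). Pdia6, an isomerase that also attenuates IRE1 signalling, stood at 402, 391 and 478 CPM and at 907, 873 and 1030 CPM, a 2.21-fold rise (1.15 ± 0.13, adjusted p = 1.67e-05). Every knockout-labelled library was above every control for both genes.

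Ero1l, the oxidase that passes oxidizing equivalents to the isomerases and is also induced by hypoxia, moved in the opposite direction. Its level was 43.9, 45.6 and 94.7 CPM in controls and 11.1, 14.8 and 9.72 CPM in knockout-labelled libraries, a 5.17-fold fall (log2 change -2.37 ± 0.34, adjusted p = 0.00135). All knockout-labelled libraries were below all controls, and control replicate 3 was the highest of all. Without that library the log2 fold change was -1.91 (adjusted p = 1.39e-05). The other oxidase gene, Ero1lb, was sparse and uneven between controls (426, 60 and 274 counts) and was not called (-0.26 ± 0.48, adjusted p = 0.699), and a pseudogene copy, Gm18562, held up to 13.3% of its count. P4hb, the founding isomerase of the family, was at 351 ± 68.4 CPM in controls and 362 ± 15.8 CPM in the others (SD, n = 3 each) and was not called (log2 fold change 0.04 ± 0.14, edgeR adjusted p = 0.824). Pdia4, another isomerase, was not called at 0.11 ± 0.12 (adjusted p = 0.48). Txndc5, a further member of the isomerase family, was not called either (-0.26 ± 0.28, adjusted p = 0.499).

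Of 10 ERAD members tested, 5 fell (Sel1l, Edem1, Syvn1, Derl1, Os9), 1 rose (Herpud1) and 4 were not called (median log2 fold change -0.34). That is 50% lower and 10% higher, beside 22.3% and 21.0% of all genes. Herpud1, a stress-induced membrane protein that gathers HRD1 complexes, stood at 66.4, 58.6 and 75.6 CPM in controls and at 232, 251 and 259 CPM in knockout-labelled libraries. It rose 3.70-fold (log2 fold change 1.89 ± 0.12, adjusted p = 2.36e-07), the largest rise of the 33 tested members, with 3 libraries against 3 wide apart. Sel1l, the partner that stabilizes HRD1, stood at 79.2, 81.9 and 93.9 CPM and at 26.0, 26.8 and 19.1 CPM. It fell 3.55-fold (-1.83 ± 0.14, adjusted p = 1.09e-06), and the groups were as clearly apart.

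The other 4 members that fell are the ligase, factors that trim or read glycans and part of the exit channel. Syvn1, which encodes HRD1, stood at 7.5, 7.67 and 6.91 CPM in controls and 2.97, 3.30 and 3.27 CPM in the other group, a 2.31-fold fall (log2 change -1.21 ± 0.19, adjusted p = 0.000253). Its groups were tight and apart, but 91 bp of its exons overlap Mrpl49 on the opposite strand, which held up to 545% of its count, and whether counting used the strand is not given in the sources used here, so Syvn1 is uncertain. Edem1, a mannose-trimming factor that marks glycoproteins for disposal, stood at 31.4, 28.5 and 29 CPM and 11.4, 13.1 and 7.95 CPM, a 2.74-fold fall (-1.45 ± 0.17, adjusted p = 2.83e-05). Derl1, a derlin of the channel through which substrates leave the ER, stood at 67.6, 66.1 and 80.8 CPM and 40.2, 51.8 and 49.0 CPM, a 1.52-fold fall (-0.61 ± 0.13, adjusted p = 0.00205). Both genes were lower in every knockout-labelled library than in any control. Os9, a lectin that reads trimmed glycans, fell 1.39-fold (-0.48 ± 0.12, adjusted p = 0.00759), although not with library totals alone (-0.29, 0.109).

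The remaining ERAD members were not called. Edem2, the mannosidase of the first trimming step, was at -0.20 ± 0.15 (adjusted p = 0.319). The derlin Derl2 and the selenoprotein Selenos, which tethers the extracting ATPase to the membrane, were at 0.31 ± 0.16 and 0.26 ± 0.14 (adjusted p = 0.132 and 0.159). Vcp, that ATPase (p97), was at 71.8 ± 4.18 and 70.3 ± 5.24 CPM (SD, n = 3 each; log2 fold change -0.03 ± 0.10, adjusted p = 0.847), and is uncertain because its processed copy Vcp-rs, 99.0% identical over 2421 bp, held up to 21.6% of its count.

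The sensors also went both ways, with 1 higher and 2 lower. Xbp1, the transcription factor downstream of IRE1, stood at 8.67, 8.37 and 9.55 CPM in controls and 16.0, 17.6 and 14.1 CPM in knockout-labelled libraries, a 1.79-fold rise (log2 fold change 0.84 ± 0.14, adjusted p = 0.000546). Atf6, the sensor that is cut in the Golgi to free its transcription factor domain, stood at 14.1, 14.4 and 13.4 CPM and 6.42, 7.18 and 6.57 CPM, a 2.08-fold fall (-1.05 ± 0.14, adjusted p = 8.83e-05). Neither gene had overlapping groups. Ern1, which encodes IRE1, was lower at 4.12, 2.39 and 2.80 CPM against 1.05, 1.64 and 1.59 CPM (-1.12 ± 0.32, adjusted p = 0.0147), on 86 to 318 counts in a library. Its call was lost without control replicate 1 (0.0861), without knockout-labelled replicate 1 (0.0542) and with the length correction alone (-0.74, 0.0934) or with the replicate block (-0.73, 0.156), and the correction alone also reduced the fall of Atf6 to -0.62 (0.00365).

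At the translocon, the channel through which new chains enter the ER, the small subunit gene Sec61b stood at 23.5, 21.3 and 25.1 CPM in controls and 35.8, 34.6 and 36.3 CPM in knockout-labelled libraries. It rose 1.52-fold (log2 fold change 0.61 ± 0.11, adjusted p = 0.000852), with no overlap between groups. With the length correction it was at 0.27 and not called (0.0624). Sec61a1, the pore subunit, was at -0.27 ± 0.12 and not called (adjusted p = 0.0884), although its groups did not overlap either.

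Seen per length, the order of the members changed between groups. In CPM per kilobase of merged exons, Hspa5 led the controls at 999 ± 626, followed by Creld2 at 154 ± 59.4, P4hb at 123 ± 23.9, Pdia6 at 113 ± 12.5 and Pdia3 at 96.2 ± 1.41 (SD, n = 3 each). These SDs are between libraries, whereas genes are compared within the same libraries, so they do not decide the order of genes with close means. That order was not tested. In the knockout-labelled libraries Hspa5 was at 518 ± 48.0, Pdia3 at 308 ± 44.8 and Pdia6 at 250 ± 22.8. P4hb, Creld2 and Herpud1 followed at 126 ± 5.53, 109 ± 3.02 and 106 ± 5.91. Ern1 was the lowest of the tested members in both groups, at 0.380 ± 0.111 and 0.175 ± 0.0404. Hspa5 alone made up 51.2, 53.1 and 70.0% of the counts of all members in the controls and 35.0, 34.1 and 35.9% in the others. The 33 members other than Hspa5 summed to 2506, 2435 and 3125 CPM in controls and to 3981, 3889 and 4315 CPM in knockout-labelled libraries, so their summed level was higher while their median fold change was below 0. Most of the summed rise lay in Pdia3, Pdia6 and Herpud1. Their means went from 302, 424 and 66.8 CPM in controls to 965, 938 and 247 CPM, whereas 11 members were called lower.

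Other genes of the same pathway were taken from 5 lists. Of 22 further ERAD genes 10 fell, 1 rose and 11 were not called, with a median log2 fold change of -0.56. That is 45.5% lower and 4.55% higher, beside 22.3% and 21.0% of all genes. Among those that fell, Ubxn4 and Nploc4, cofactors of p97, had log2 fold changes of -1.28 ± 0.18 and -0.98 ± 0.20 (edgeR adjusted p = 0.000126 and 0.0016). The 1 gene that rose, named for that reason after its value was seen, was Aup1 (0.63 ± 0.14), whose exons overlap those of Htra2, which makes it uncertain. With the length correction 7 of these genes were lower and 2 higher.

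Genes of folding and glycan transfer leaned the other way in the share that rose, while the share that fell was near that of all genes. Of 20 further folding genes 9 rose and 4 fell (45% and 20%, beside 21.0% and 22.3% of all genes, median 0.15). They were led by the membrane oxidoreductases Tmx2 (28.8 ± 3.60 to 80.5 ± 4.60 CPM, log2 fold change 1.48 ± 0.12) and Tmx1 (1.06 ± 0.12) and by Cnpy2 (1.34 ± 0.13). Of 17 tested genes of N-glycan transfer and processing 7 rose and 3 fell (41.2% and 17.6%, median 0.20, or -0.02 with the length correction). With that correction 7 of these glycan genes were higher and 4 lower, and 7 of the folding genes were higher and 2 lower. Of all 12919 genes in the corrected fit, 2669 were higher and 2531 lower. Dad1 and Ddost, subunits of the oligosaccharyltransferase, were at 1.60 ± 0.13 and 0.88 ± 0.11, and Alg5, which makes glucosyl donors, at 0.98 ± 0.12. The 21 genes of targeting and translocation were even, with 7 higher and 7 lower (33.3% each, median 0.00). Among them the signal peptidase subunit Spcs1 was at 1.06 ± 0.11, the translocon-associated Ssr3 at -1.01 ± 0.12 and Sec63, a J protein at the channel, at -1.35 ± 0.17.

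Signalling genes of the response also held calls in both directions. Of 18, 5 were higher and 6 lower (27.8% and 33.3%, beside 21.0% and 22.3% of all genes, median -0.36). Chac1, a glutathione-degrading target of the ATF4 arm, rose from 7.13 ± 2.5 to 41.9 ± 0.923 CPM with the SD of 3 libraries (log2 change 2.56 ± 0.20, adjusted p = 1.32e-06). Eif2s1, the translation factor that PERK phosphorylates, and Rtcb, the ligase that joins the exons of Xbp1 mRNA after the cut by IRE1, rose by 1.27 ± 0.10 and 1.13 ± 0.10. Some genes of the PERK arm outside the naming rule are given with their values already known. Among them Atf4 was at -0.42 ± 0.12 (adjusted p = 0.0146), Ppp1r15a at -1.13 ± 0.22 (0.00166) and Ddit3 at -0.94 ± 0.27 (0.0242), whereas Trib3, a target of ATF4 and CHOP, was higher at 0.92 ± 0.14 (0.000192). Eif2ak3, which encodes PERK, and Ppp1r15b were not called, at -0.37 ± 0.64 (0.68) and 0.26 ± 0.18 (0.26). Eif2ak3 had only 23 to 51 counts in a library. Gm43292 overlaps 485 bp of its exons on the opposite strand and held up to 129.5% of its count, so Eif2ak3 is uncertain. Ddit3 is uncertain because it overlaps Mars by 68 bp on the opposite strand. Over the 5 lists together 29 of 98 genes tested were higher and 30 lower, or 29.6% and 30.6%, beside 21.0% and 22.3% of all genes. Under the stricter filter 56% of all genes were called, and these lists were not counted with it.

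**Figure D4:**
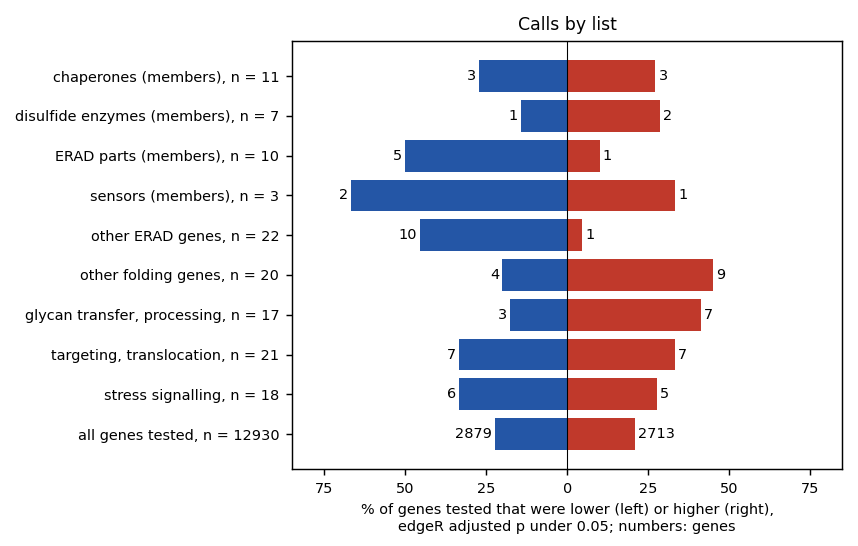
Share of the tested genes of each list that were higher (right, red) or lower (left, blue) in knockout-labelled libraries at an edgeR adjusted p of 0.05, with the number of genes at each bar. The ERAD members (5 lower, 1 higher) and the other ERAD genes (10 lower, 1 higher) lean to the left, the folding genes outside the members (9 higher, 4 lower) to the right, and all genes tested are nearly even.

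Fold change went with exon length over all genes in this comparison, which bears on the members because their lengths differ. All genes tested had a median log2 fold change of 0.36 for exon lengths of 1000 to 2000 bp and -0.42 for lengths over 6000 bp. The ERAD and sensor genes that fell include long ones, with 8555 bp for Sel1l, 9231 bp for Atf6 and 8173 bp for Ern1, while Herpud1 has 2333 bp and Sec61b 1271 bp. After a correction for this trend Sel1l was at -1.44, Edem1 at -1.21, Herpud1 at 1.63, Pdia3 at 1.55 and Ero1l at -2.24, all called. The correction ended the calls of Hyou1, Sec61b and Ern1, and it added those of Derl2 (0.68), Creld2 (-0.84), Dnajb9 (-1.38) and Sdf2l1 (-0.61). The members then came to 8 higher and 12 lower, and the part of length in the differences between groups was not tested beyond this correction.

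**Figure D5:**
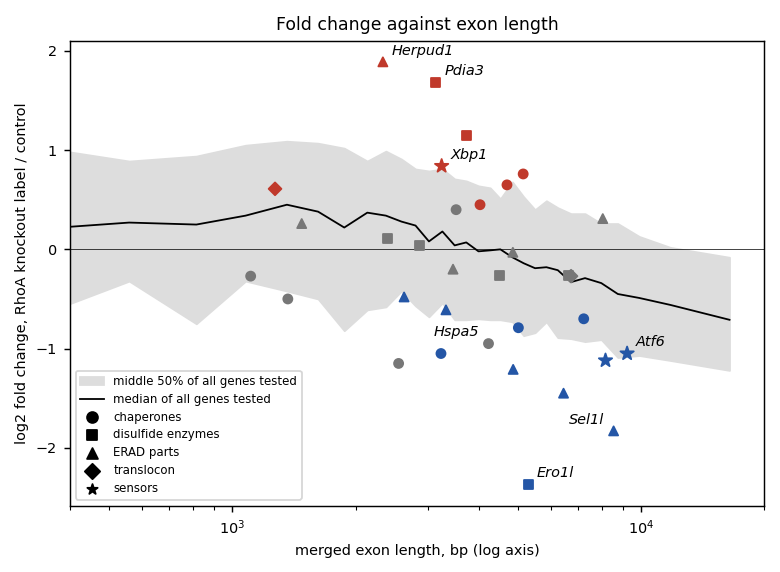
Log2 fold change (y axis, knockout-labelled over control) against merged exon length (x axis, log scale) for the 33 tested members, with symbols for roles and colours for the edgeR call (red higher, blue lower, grey not called), over the median and middle 50% of all genes tested. Herpud1, Pdia3, Ero1l and Sel1l lie far outside the grey band, while Atf6 lies close to its lower edge.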

How the data were processed

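The authors deposited 1 table of whole-number counts per gene for 6 samples, without normalization. GRCm38 is the build named by the submitters' processing notes. Which aligner, counting tool and strand setting were used is not given in the sources used here. All 6 value columns were matched to samples by name. Gene IDs were matched to GENCODE M21 without their version, and 55227 of 55487 had a symbol. Tests used edgeR 4.0.16 (R 4.3.3), with genes kept by filterByExpr, scaling by TMM, robust glmQLFit and glmQLFTest, and Benjamini-Hochberg adjustment over the 12930 genes tested. The SE is the log2 fold change over the square root of F. CPM per kilobase uses merged exons. Alternatives were other scalings and filters, DESeq2 1.42.0, the replicate number as a block, leaving out libraries, and a length correction that takes each library's lowess trend (span 0.3) over exon length, of log2 CPM relative to the mean library, as an offset. Near-identical copies were sought with blastn 2.17.0 at 95% identity over 200 bp, and exon overlaps in the annotation. Separate cultures for the samples of a group are not named in the labels. The p-values therefore reflect no more than the variation among these libraries, part of which may be technical. No libraries agreed within sampling noise (chi-square per degree of freedom at least 20.7). Promoter sequences are from RefSeq on GRCm38.p6. The members and lists were chosen with earlier results of these data known. Given library by library are up to 5 called chaperones, 5 ERAD parts, 4 disulfide enzymes, 2 translocon subunits and 3 sensors with the largest fold changes, and Hspa5, with Hsp90b1 added after its values were seen. From each further list up to 3 called genes with the smallest p are named, apart from a gene that is not reported here, and genes outside this rule are said to be so.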

Additional observations from a re-analysis of the deposited data

How the results depend on the processing

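The members called were within 1.5 times the main 8 higher and 11 lower in every alternative fit, from 6 to 12 higher and from 8 to 13 lower. With the replicate block they were 10 and 11. The replicate numbers share no known origin, same-numbered libraries did not deviate together (correlations across genes of -0.01, 0.03 and 0.01), and all calls went from 2713 higher and 2879 lower to 2634 and 2738. Of the 19 called members, 12 were called in all 16 alternatives: Dnajb11, Dnajc3, Pdia3, Pdia6, Ero1l, Herpud1, Sel1l, Syvn1, Derl1, Edem1, Xbp1 and Atf6. Medians moved by more than the spread between replicates with library totals alone (members -0.06, chaperones -0.31, disulfide enzymes 0.23, ERAD parts -0.16, sensors -0.88), with the length correction (disulfide enzymes -0.14, which changed sign, ERAD parts -0.48, sensors -0.62), with it and the replicate block (-0.12 for disulfide enzymes, which changed sign, and -0.62 for sensors), and without replicate 3 of both groups (members -0.12, chaperones -0.28). Leaving out 1 library at a time gave medians from -0.36 to -0.07 for members, -0.65 to -0.13 for chaperones, -0.07 to 0.22 for disulfide enzymes and -1.12 to -0.86 for sensors, with the upper ends of the first 3 without control replicate 3. Among single members, signs changed only for some that were not called. Vcp was at 0.15 with library totals, 0.00 with DESeq2, and 0.07 with either length correction. With the length correction, and with it and the block, Pdia4 was at -0.14 and -0.13, P4hb at -0.14 and -0.12, Selenos at -0.09 and -0.08 and Sec61a1 at 0.00 and 0.01. Ero1lb was at 0.26 with the length correction and the block together and 0.01 without replicate 3 of both groups. Over single libraries left out, P4hb ran from -0.07 to 0.22, Ero1lb from -0.73 to 0.14, Vcp from -0.08 to 0.04 and Txndc5 from -0.44 to 0.01. The cause of these shifts was not tested. Depth limits Ern1, Dnajb9 and Ero1lb, which had at most 426 counts in a library.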
